A study of Mus musculus with 10 samples.

Results

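The RNAs described are 6 mouse long noncoding RNAs: Malat1 and Neat1, which stay in the nucleus, and Gas5, Snhg1, Snhg3 and Snhg12, whose introns carry small nucleolar RNAs. They were read through every probe set (a group of short probes read as 1 value) that the platform annotation gives exactly 1 gene symbol, that symbol being one of these 6. The 6 genes are among 18194 symbols named this way and have 20 of 45101 probe sets: 7 for Malat1, 5 for Snhg1, 4 for Gas5, 2 for Neat1 and 1 each for Snhg3 and Snhg12. All 20 lay above the filter on low intensity, among 27022 probe sets tested. The genes were chosen by their differences on these same arrays, both CLP against sham and between arrays of different replicate number. The differences of the 20 probe sets in these contrasts are therefore given as descriptions with their standard errors and without p-values. Counts of them past a threshold are given with those over all probe sets, and nothing is read from them. Whether the CLP difference varied with replicate number was not used in the choice, and a p-value is given there.

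RNA came from CD4+ splenocytes of C57Bl/6 mice, 8 to 12 weeks old, and each mouse had an Affymetrix array of its own. Under halothane, 5 mice underwent cecal ligation and puncture (CLP), a surgical model of abdominal sepsis, and 5 mice had a sham laparotomy; spleens were taken 6 h later. Cells were enriched by removing the others on magnetic beads, to about 91% CD4+ per the series' design text, and the RNA went through a pair of amplification rounds. The CLP arrays are numbered 1 to 5 in the titles, and the sham arrays by a suffix from 1 to 5. Levels are intensities brought to 1 shared array median, or their log2; the number of arrays limits the precision.

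Malat1 is an abundant RNA of nuclear speckles, the bodies where splicing factors gather. Its end is cut by RNase P and protected by a triple helix in place of a poly(A) tail. Neat1, its neighbour in the genome, is the scaffold of paraspeckles, bodies built with RNA-binding proteins such as Sfpq and Nono. Gas5 and the Snhg RNAs are hosts: their introns are processed into small nucleolar RNAs, which guide the chemical modification of ribosomal RNA, while the spliced host RNA is often short-lived through nonsense-mediated decay. Many hosts begin with a pyrimidine tract, as the messages of ribosomal proteins do, and Gas5 was first known as a transcript that builds up in growth arrest.

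The start regions of the hosts are shown because the tract is what they are known to share with ribosomal protein genes. RefSeq windows of build GRCm38.p6 were found for 5 of the 6 genes, with 2 for Gas5. Each line runs 5′ to 3′ on the transcribed strand over 100 bases, 50 before and 50 from the annotated start. Capitals mark a run of at least 5 C or T that begins with C and starts within 10 bases of that start, searched on the transcribed strand only.
Malat1, chr19:5802623-5802722, minus strand: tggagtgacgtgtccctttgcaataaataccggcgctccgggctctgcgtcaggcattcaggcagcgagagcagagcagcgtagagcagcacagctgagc
Gas5 (upstream start), chr1:161034551-161034650, plus strand: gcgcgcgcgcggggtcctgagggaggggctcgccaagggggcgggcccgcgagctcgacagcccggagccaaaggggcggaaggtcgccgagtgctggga
Gas5 (downstream start), chr1:161035116-161035215, plus strand: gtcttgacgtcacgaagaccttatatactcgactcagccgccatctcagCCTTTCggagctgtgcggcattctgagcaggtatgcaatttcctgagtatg
Snhg1, chr19:8723437-8723536, plus strand: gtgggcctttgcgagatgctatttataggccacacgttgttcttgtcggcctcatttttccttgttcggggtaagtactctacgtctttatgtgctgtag
Snhg3, chr4:132353637-132353736, minus strand: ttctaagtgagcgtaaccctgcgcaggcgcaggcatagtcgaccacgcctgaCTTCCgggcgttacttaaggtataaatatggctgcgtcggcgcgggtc
Snhg12, chr4:132308628-132308727, plus strand: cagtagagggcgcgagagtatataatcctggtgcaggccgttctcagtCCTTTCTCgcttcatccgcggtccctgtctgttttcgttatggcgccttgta
Such a run was found for 3 of the 4 hosts, at the downstream start of Gas5 and at the starts of Snhg3 and Snhg12, against 34.4% of all genes with a window (30.7% of all 32851 windows). It was found for 8 of 18 other hosts (44.4%) and 7 of 16 listed protein genes known for such a tract (43.8%). These letters are a description of the windows and show no binding or use of the tract.

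The arrays numbered 2 and 4 of both groups stood apart from those numbered 1, 3 and 5. The middle 18S ribosomal RNA control probe set read 195 to 282 on these 4 arrays and 2950 to 5380 on the other 6. The ratio of the 3 prime to the 5 prime Gapdh control was 9.45 to 13.4 against 20.7 to 29.5. The same ratio for Actb overlapped between the sets, at 7.4 to 10.8 against 6.25 to 11.7. The 3 prime Actb control read 8460 to 10000 against 13300 to 15400. The labels give no reason for the split, which was found in these arrays, and each set holds CLP and sham arrays in the same proportion. Deposited array medians lay between 127.6 and 142.4. All 6 CD4 T cell markers were tested, with Cd4 at a mean log2 level of 10.72 in CLP and 10.84 in sham arrays; all 6 had a lower mean in CLP (median log2 difference -0.30), none past the threshold.

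Malat1 was lower on the arrays numbered 2 and 4 in all of its 7 probe sets, by log2 differences from -3.27 to -0.26. Probe set 1452378_at read 1295, 143, 1560, 243 and 1917 on CLP replicates 1 to 5. On sham replicates 1 to 5 it read 1430, 131, 1628, 147 and 1575. All 4 arrays numbered 2 or 4 were at or below 243, and the other 6 were at or above 1295. The log2 difference between the sets was -3.27 ± 0.16 (SE, n = 4 against 6 arrays, limma with a term for CLP or sham), a 9.67-fold lower level. It was the most negative of all 27022 probe sets tested in that contrast. The contrast was known when the genes were chosen, so the rank is a description. The readings on the arrays numbered 2 or 4 were not far above the floor of 70.4 set on low intensities, which limits the size of the fold.

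Probe set 1418189_s_at of Malat1 followed the same order with a smaller gap. On CLP replicates 1 to 5 it read 8525, 1966, 8107, 7127 and 7726. On sham replicates 1 to 5 it read 8831, 2978, 8967, 4633 and 8239. The 4 arrays numbered 2 or 4 lay below the other 6, with CLP replicate 4 close to them and CLP replicate 2 the lowest. The log2 difference was -1.17 ± 0.28 (SE), or 2.25-fold lower, and leaving out 1 array moved it between -1.54 (CLP replicate 4 left out) and -0.82 (CLP replicate 2 left out).

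The other Malat1 probe sets fell into a group with large gaps and a group with small ones. Probe set 1438403_s_at gave -1.87 ± 0.29 (SE), 1418188_a_at -1.66 ± 0.23 and 1436202_at -1.26 ± 0.23. For 1438403_s_at and 1418188_a_at the sets did not overlap, and for 1436202_at CLP replicate 4 (1681) lay above CLP replicate 1 (1639) and sham replicate 3 (1473). Probe set 1429060_at gave only -0.29 ± 0.24, its values running from 952 on CLP replicate 2 to 3198 on sham replicate 3, and the sets overlapped. Probe set 1427285_s_at gave -0.26 ± 0.10 and read 170 to 266 on all 10 arrays. It is annotated with the same sequence accession as 1452378_at, so probe sets drawn from 1 source sequence gave -0.26 and -3.27 in this contrast. In Affymetrix names the ending s marks probes that several transcripts share, of 1 gene or of several, so 1418189_s_at, 1438403_s_at and 1427285_s_at may hold signal of other RNAs.

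**Figure D1:**
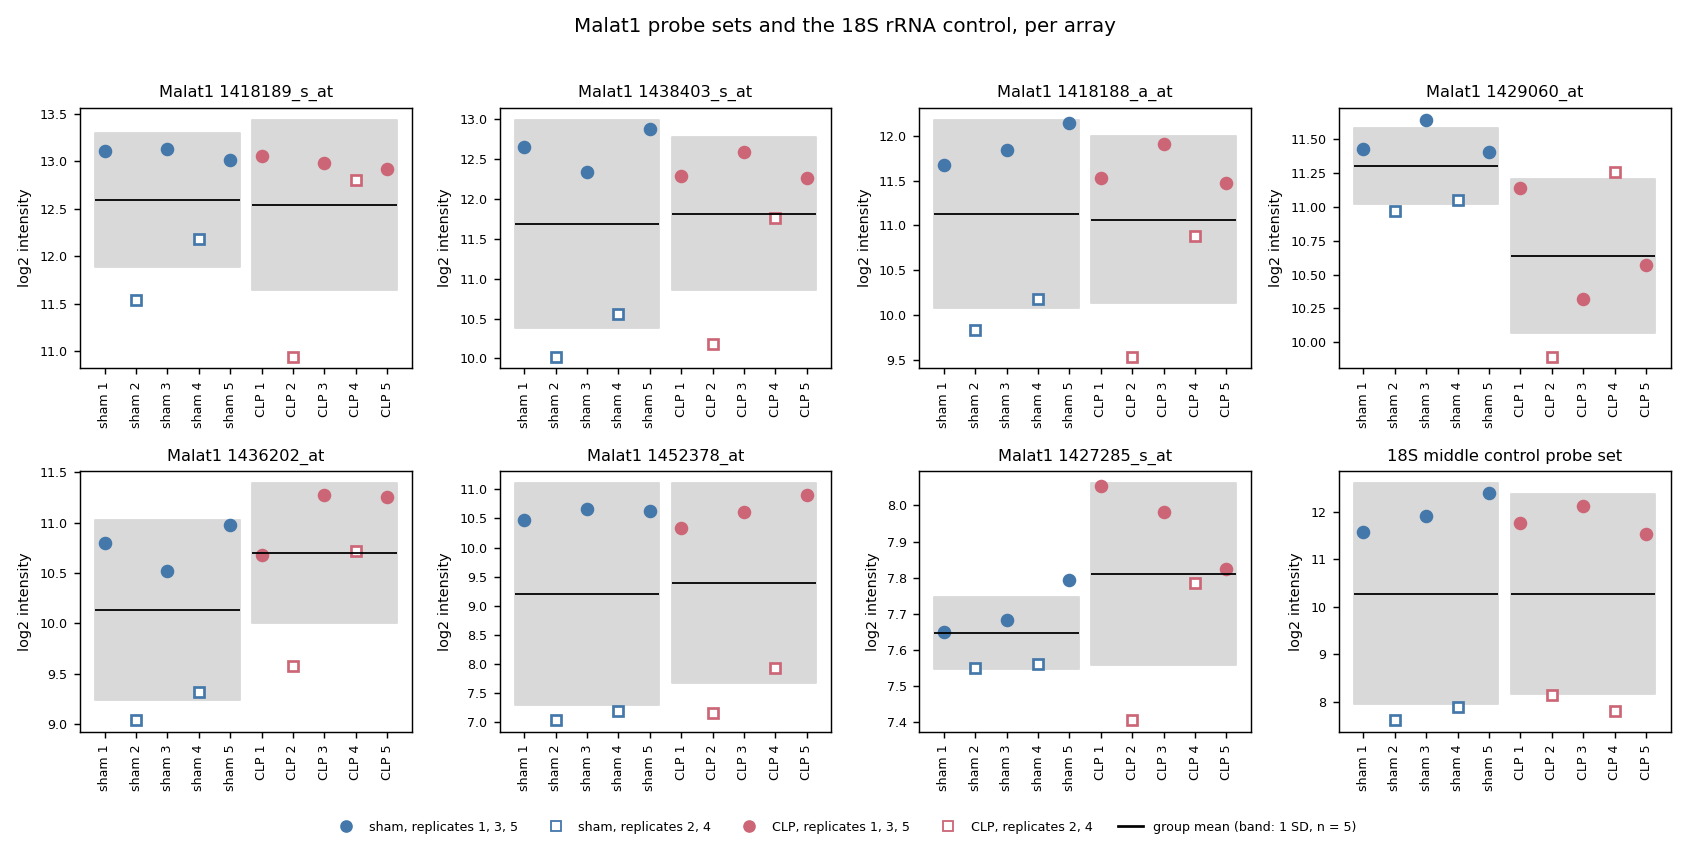
Log2 intensity of the 7 Malat1 probe sets and of the middle 18S control probe set on each of the 10 arrays, with group means (line) and 1 SD (band, n = 5); open squares are replicates 2 and 4. The open squares of 1452378_at (131 to 243 before log2) and of the 18S control (195 to 282) lie below all filled circles in both groups.

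Between CLP and sham mice the Malat1 probe sets went both ways, 4 higher and 3 lower. Probe set 1418189_s_at had a mean log2 level of 12.54 ± 0.90 (SD, n = 5) in CLP and 12.59 ± 0.71 in sham arrays, a difference of -0.05 ± 0.43 (SE). Its direction turned with single arrays: it was -0.32 when sham replicate 2 was left out and 0.35 when CLP replicate 2 was. Probe set 1452378_at differed by 0.19 ± 0.96 (SE), and by 0.19 ± 0.16 once the replicate set was a term in the fit.

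Single Malat1 probe sets differed by more between the groups, in opposite directions. Probe set 1429060_at read 2259, 952, 1275, 2442 and 1518 in CLP replicates 1 to 5 and 2753, 2009, 3198, 2120 and 2705 in sham replicates 1 to 5. That is a log2 difference of -0.66 ± 0.25 (SE), with CLP replicates 1 and 4 inside the sham range. Probe set 1436202_at went the other way, at 0.57 ± 0.43, and at 0.30 within replicates 1, 3 and 5 and 0.97 within replicates 2 and 4.

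Neat1 had a pair of probe sets that did not move together. Probe set 1428083_at read 500, 274, 421, 322 and 500 in CLP replicates 1 to 5. In sham replicates 1 to 5 it read 562, 366, 661, 328 and 703. The arrays numbered 2 and 4 were the 4 lowest, with a log2 difference between the sets of -0.78 ± 0.10 (SE), or 1.71-fold lower. Within each set every CLP array was below every sham array: the difference was -0.44 in replicates 1, 3 and 5, -0.22 in replicates 2 and 4, and -0.35 ± 0.10 with the set as a term. Without that term it was -0.35 ± 0.25, and the groups overlapped.

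The other Neat1 probe set, 1442881_at, read 305, 277, 603, 649 and 358 in CLP replicates 1 to 5 and 600, 605, 514, 630 and 274 in sham replicates 1 to 5. Sham replicate 5 was far below the other sham arrays, and the groups overlapped. It differed by -0.29 ± 0.29 (SE) between CLP and sham and by 0.28 ± 0.29 between the replicate sets, so in the second contrast its sign was opposite to that of 1428083_at.

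Gas5, which also has a decoy role for the glucocorticoid receptor, differed in direction between its 4 probe sets. Probe set 1419291_x_at read 5626, 5771, 5251, 5902 and 5031 in CLP replicates 1 to 5 and 4644, 5673, 4916, 6464 and 4998 in sham replicates 1 to 5. Its CLP against sham difference was 0.06 ± 0.10 (SE) on the log2 scale. The 4 arrays numbered 2 or 4 were the 4 highest, by 0.23 ± 0.08. The ending x marks probes that may bind other transcripts.

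Among the 11 host probe sets, 1424843_a_at of Gas5 had the CLP difference of largest size. It read 218, 157, 171, 141 and 137 in CLP replicates 1 to 5 and 244, 227, 281, 185 and 262 in sham replicates 1 to 5. All CLP arrays but replicate 1 lay below every sham array. The log2 means were 7.34 ± 0.27 (SD, n = 5) and 7.89 ± 0.23, a difference of -0.55 ± 0.15 (SE), not far above the floor of 6.14 set on low intensities. Leaving out CLP replicate 1 gave -0.65. The other Gas5 probe sets gave 0.21 ± 0.17 (1449410_a_at) and -0.12 ± 0.10 (1436222_at), and the mean over all 4 was -0.10.

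**Figure D2:**
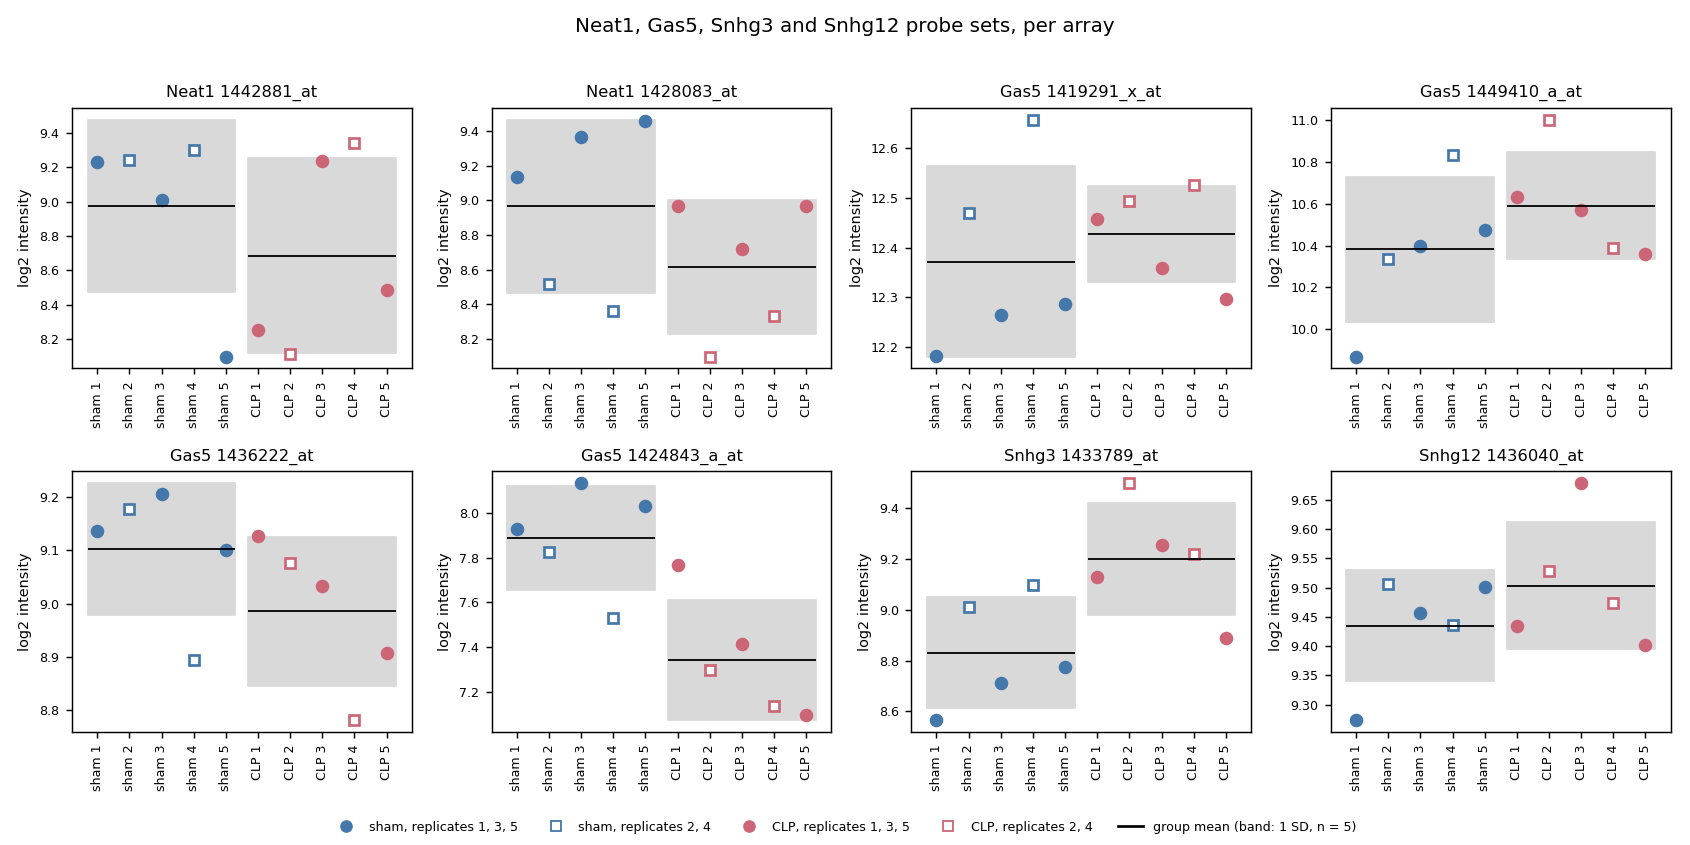
Log2 intensity of the Neat1, Gas5, Snhg3 and Snhg12 probe sets on each array, with group means (line) and 1 SD (band, n = 5). For Gas5 1424843_a_at the CLP arrays other than replicate 1 lie below all sham arrays, and for Neat1 1428083_at the open squares (replicates 2 and 4) are the lowest.

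Snhg1, host of a cluster of box C/D small nucleolar RNAs, was higher on the arrays numbered 2 and 4 in all of its 5 probe sets, by log2 differences from 0.15 to 0.42. Probe set 1433675_at read 1289 and 1010 on CLP replicates 2 and 4 and 967 and 1015 on sham replicates 2 and 4. On the remaining arrays it read 826, 852 and 786 in CLP and 615, 790 and 936 in sham mice. The sets did not overlap, and the difference was 0.42 ± 0.12 (SE), or 1.34-fold higher. Probe set 1439399_a_at read 3487 to 4645 on all arrays and differed by 0.21 ± 0.08.

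Between CLP and sham mice the 5 Snhg1 probe sets differed by 0.02 to 0.33, all in the same direction. The largest was that of 1437658_a_at, which read 270, 384, 307, 270 and 256 in CLP replicates 1 to 5 and 198, 270, 246, 228 and 234 in sham replicates 1 to 5. Here sham replicate 2 lay among the CLP arrays. Within each replicate set every CLP array was above every sham array, though CLP replicate 4 and sham replicate 2 both round to 270. The difference was 0.33 ± 0.13 (SE), with log2 means of 8.20 ± 0.24 (SD, n = 5) and 7.87 ± 0.16. For 1439399_a_at it was 0.05 ± 0.10.

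Snhg3, host of H/ACA small nucleolar RNAs, read 560, 723, 610, 597 and 474 in CLP replicates 1 to 5 and 379, 516, 419, 548 and 437 in sham replicates 1 to 5. Its log2 means were 9.20 ± 0.22 (SD, n = 5) in CLP and 8.83 ± 0.22 in sham arrays, a difference of 0.37 ± 0.13 (SE), or 1.29-fold. CLP replicate 5 lay inside the sham range, and within each replicate set the CLP arrays were all above the sham arrays, by 0.41 and 0.31. Over 22 other settings the difference stayed between 0.29 and 0.44. It was also higher on the arrays numbered 2 and 4, by 0.32 ± 0.10.

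Snhg12, which lies near Snhg3 on chromosome 4, showed little difference in either contrast. It read 676 to 819 in CLP and 619 to 727 in sham arrays, a log2 difference of 0.07 ± 0.09 (SE), and differed by 0.03 ± 0.09 between the replicate sets.

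**Figure D3:**
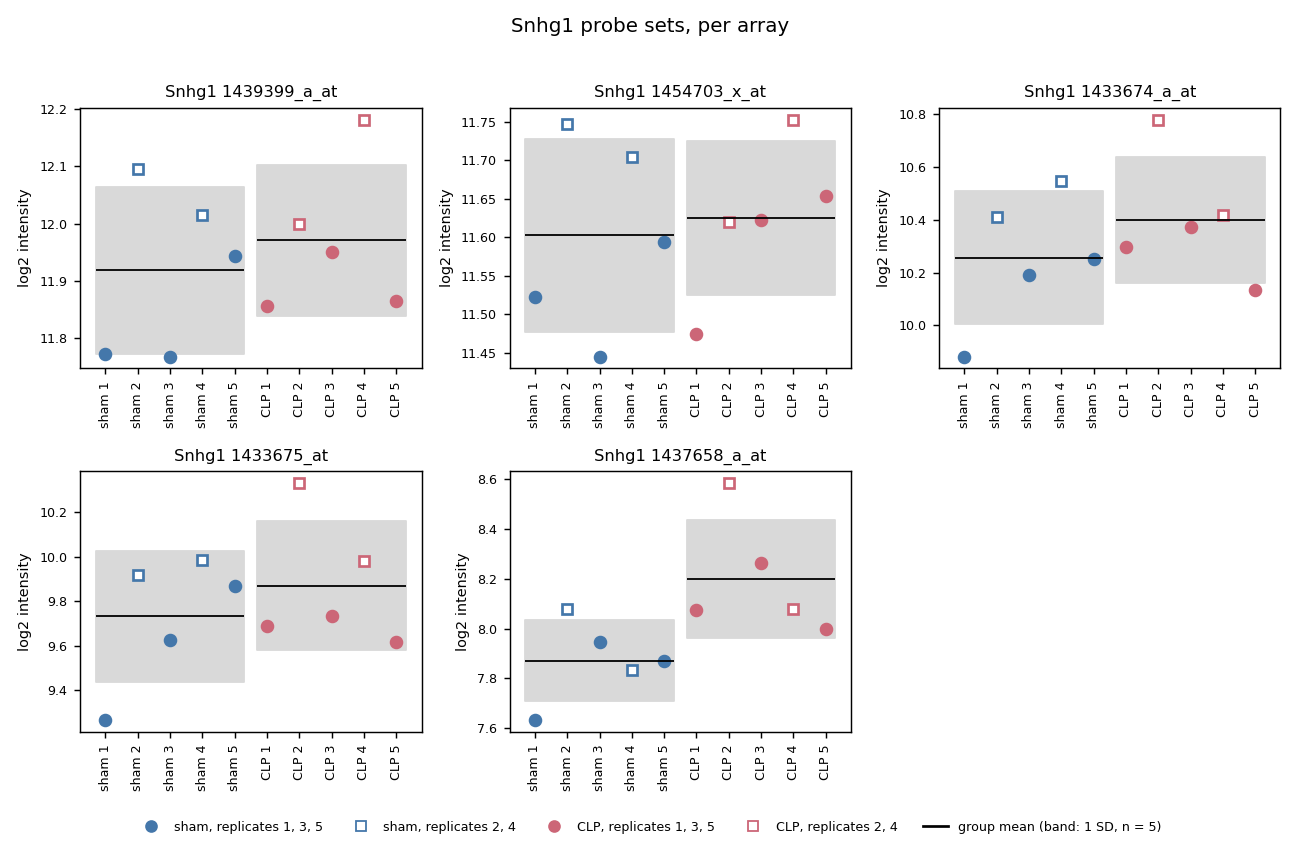
Log2 intensity of the 5 Snhg1 probe sets on each array, with group means (line) and 1 SD (band, n = 5). For 1433675_at and 1433674_a_at the open squares (replicates 2 and 4) lie above all filled circles, and for 1437658_a_at the CLP mean (8.20) is above the sham mean (7.87).

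The calls over all 20 probe sets are given beside those over the whole array. By limma with Benjamini-Hochberg adjustment over all 27022 probe sets and a threshold of 0.05, 0 of the 20 passed for CLP against sham, where 0.703% of all probe sets passed; 4 of the 20 had an unadjusted p under 0.05, as did 10.9% of all (higher 0.167% and lower 0.537% after adjustment). In 0 of the 20 were the groups free of overlap, against 0.862% higher and 2.11% lower over all probe sets. Between the replicate sets 9 of the 20 passed, against 15.1% of all probe sets, and 13 had an unadjusted p under 0.05, against 30%. Of the 9 that passed, 6 were lower, 5 of Malat1 and 1 of Neat1, where 10.1% of all probe sets passed as lower, and 3 were higher, 2 of Snhg1 and the 1 of Snhg3, where 4.99% passed as higher. The sets did not overlap in 5 that were below, 4 of Malat1 and 1 of Neat1 (7.77% of all probe sets), and in 4 that were above, 3 of Snhg1 and 1 of Gas5 (3.94%). Nothing is read from these counts, since both contrasts were known when the members were chosen. The count of 9 became 5 without sham replicate 2 or without a filter on low probe sets, 1 with CLP arrays only (2 against 3) and 7 with sham arrays only.

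The replicate sets being equal in both groups, the CLP difference could be fitted with the set as a term. Then 2.66% of all probe sets passed (2.01% as lower), and 1 of the 20, Gas5 1424843_a_at, which was lower. That probe set passed in 2 of 21 other settings, this one and the one without CLP replicate 1, and nothing is read from it, since this contrast chose the members. Within both sets at once, 2 of the 20 had all CLP arrays above sham (Snhg1 1437658_a_at and Snhg3), where 2.1% of all probe sets did, and 2 had them below (Neat1 1428083_at and Gas5 1424843_a_at), where 4.97% did. Whether the CLP difference was unlike in the 2 sets was tested as an interaction, which the choice of members did not use. By limma 0 of the 20 passed, as did 0% of all probe sets (1032 of 27022, or 3.82%, at an unadjusted p under 0.05, 0 of them members). The largest interaction among the members was that of Malat1 1438403_s_at, 0.92 ± 0.53 (SE, adjusted p = 0.999 by limma), and it was 1.71 without CLP replicate 2. That setting leaves CLP replicate 4 as the 1 CLP array of its set, assumed to vary like the other groups.

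**Figure D4:**
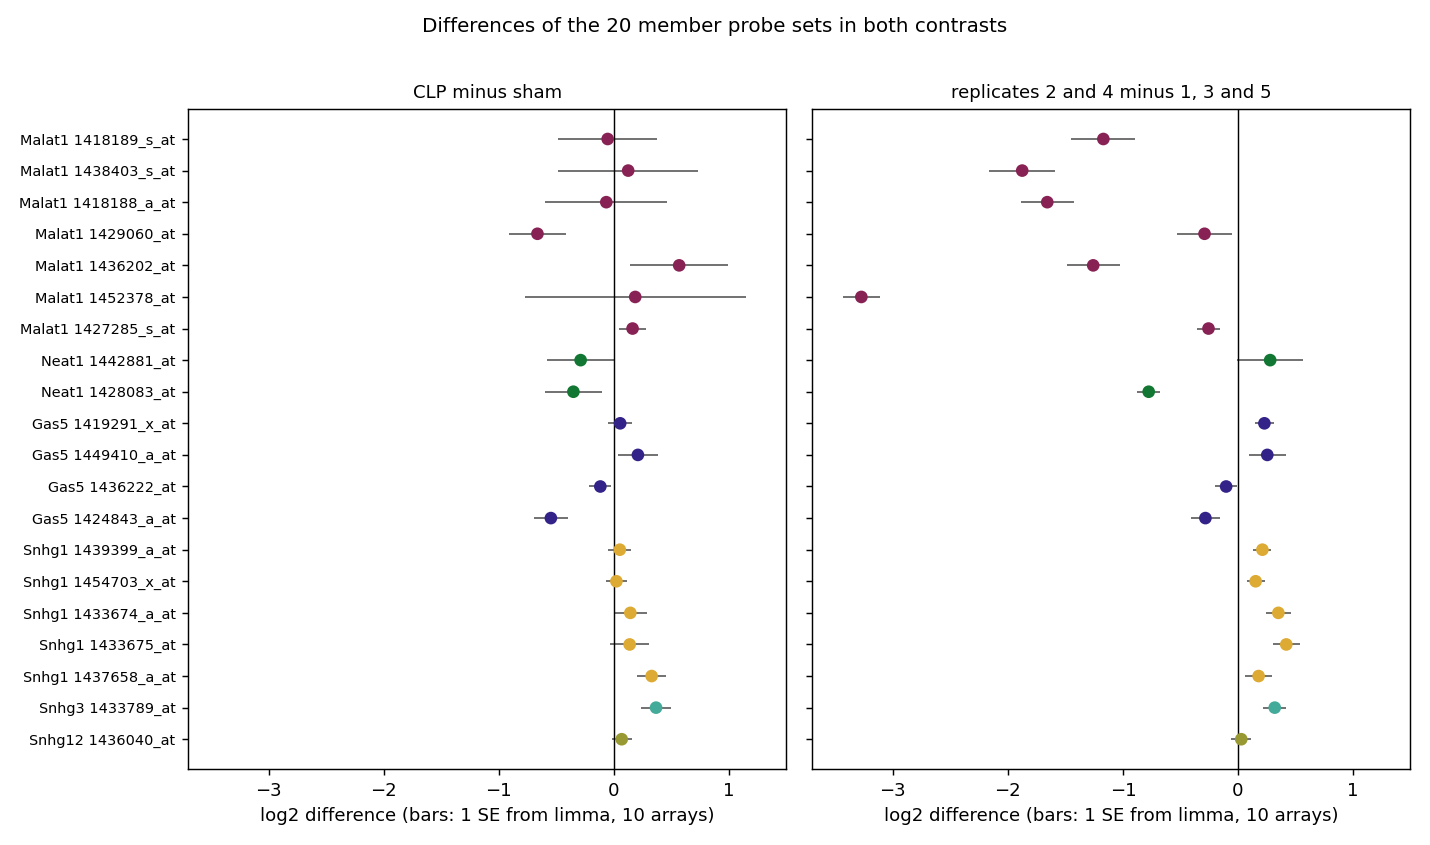
Log2 differences of the 20 probe sets, CLP minus sham (left) and replicates 2 and 4 minus 1, 3 and 5 (right), with 1 SE from limma over 10 arrays. On the right the Malat1 points run from -3.27 to -0.26 and the Snhg1 points from 0.15 to 0.42; on the left the Malat1 points lie on both sides of 0.

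Other snoRNA hosts were read from a list of 21 genes, of which 14 were tested by their brightest probe set. For CLP against sham 0 of 14 passed, where 0.75% of all genes did, and the list's median log2 difference was -0.03. Between the replicate sets 2 rose and 1 fell, where 5.33% of 13073 genes rose and 9.22% fell. These shares are the background for each list below. The split was found in these same arrays, so adjusted p-values between the replicate sets, here and below, are given as a description. When 1 array was left out this list had 0 (without sham replicate 2, 3 or 4) to 5 calls (without CLP replicate 4). Snhg6 was higher by 0.50 ± 0.15 (SE, adjusted p = 0.0407 by limma) and Zfas1, host of box C/D RNAs, by 0.40 ± 0.10 (adjusted p = 0.0206 by limma). Eif4a2 was lower, at -0.29 ± 0.07.

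Among 13 tested long noncoding RNAs of other kinds 1 fell in CLP mice, Oip5os1 (Cyrano), a conserved RNA with a binding site for a microRNA. Its mean log2 level differed by -0.80 ± 0.13 (SE, adjusted p = 0.0296 by limma), with all CLP arrays below all sham arrays. Of all genes 0.551% passed as lower and 2.28% had all CLP arrays below sham. It stayed negative in 22 other settings and passed in 11 of them. Between the replicate sets it differed by -0.08 ± 0.13. There Xist, which coats the inactive X chromosome, gave -0.21 ± 0.09 and Norad 0.03 ± 0.08, neither past the threshold. Mirg, a noncoding RNA of the Meg3 locus, rose there by 0.46 ± 0.12 (adjusted p = 0.0277 by limma) and passed in 14 of 21 other settings. The list's median there was -0.02.

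Proteins of the bodies that Malat1 and Neat1 mark were then read by list, with no pass for CLP against sham in any of the 8 lists but for Oip5os1. Without CLP replicate 1 that count became 2 for paraspeckle proteins, 1 for speckle and splicing factors and 2 for Malat1 end processing and RNA methylation. Over 21 other settings it rose above 0 in 2 for paraspeckle proteins and in 2 for speckle and splicing factors, to 2 at most. For Malat1 end processing and RNA methylation it did so in 7, to 2 at most, and for other snoRNA hosts in 1. Of 28 tested nuclear speckle and splicing factors, 5 fell between the replicate sets and 0 rose (median -0.15), against 9.22% and 5.33% of all genes. The falls were those of Snrnp70, the U1 snRNP protein, by a log2 difference of -1.05 ± 0.10 (SE, adjusted p = 0.000116 by limma), Acin1 (-0.96 ± 0.10), U2af2, which binds the polypyrimidine tract of introns (-0.60 ± 0.08), and Srrm2, a speckle scaffold (-0.57 ± 0.09), and Ddx39b, an RNA helicase (-0.48 ± 0.10). Of 17 paraspeckle proteins 2 fell and 2 rose: Sfpq, needed for paraspeckles, gave -1.46 ± 0.11 (adjusted p = 3.02e-05 by limma) and Hnrnpa1 -0.49 ± 0.11, while Matr3 gave 0.26 ± 0.07 and Hnrnpr 0.31 ± 0.09. With the probe sets of each gene averaged, Hnrnpr turned to -0.38 and passed the threshold in that opposite direction (adjusted p = 0.00957 by limma). In that setting Sfpq gave -0.46 and Snrnp70 -0.50, while Ddx39b gave -0.15 and was no longer past the threshold. Sfpq kept its sign and passed in 21 of 21 other settings. When 1 array was left out there were 1 (without sham replicate 2 or 4) to 4 paraspeckle calls.

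Factors that handle host RNAs or the end of Malat1 were read in the same contrast, again against 9.22% of all genes that fell and 5.33% that rose. Of 8 tested nonsense-mediated decay genes 3 fell: Smg1, the kinase that starts decay (-0.58 ± 0.09), Smg6, its endonuclease (-0.57 ± 0.16), and Casc3, of the exon junction complex (-0.37 ± 0.08), with a list median of -0.25. When 1 array was left out there were 1 to 3 calls, fewest without sham replicate 2, and with probe sets averaged Smg6 gave -0.30 and did not pass. Of 17 small nucleolar RNP proteins and assembly factors 3 fell, Nolc1 (-0.73 ± 0.22), Coil, the coilin of Cajal bodies (-0.43 ± 0.12), and Pih1d1 (-0.36 ± 0.09), with a median of 0.02. When 1 array was left out there were 0 (without CLP replicate 3 or sham replicate 2, 3 or 4) to 3 calls, and Nolc1 gave -0.13 with probe sets averaged and passed in 9 of 21 other settings. Of 18 protein genes listed for a pyrimidine tract at the start of their messages 1 rose, Rps24 (0.28 ± 0.08), which passed in 12 of 21 other settings. Of the 18, 15 were above 0, with a median of 0.09, where the median over all genes was -0.0007. The list's count of calls ran from 0 to 4 over 20 other settings. Of 15 genes of Malat1 end processing and RNA methylation 1 rose, the RNase P subunit Rpp30 (0.54 ± 0.10, adjusted p = 0.00561 by limma), with a median of -0.09.

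**Figure D5:**
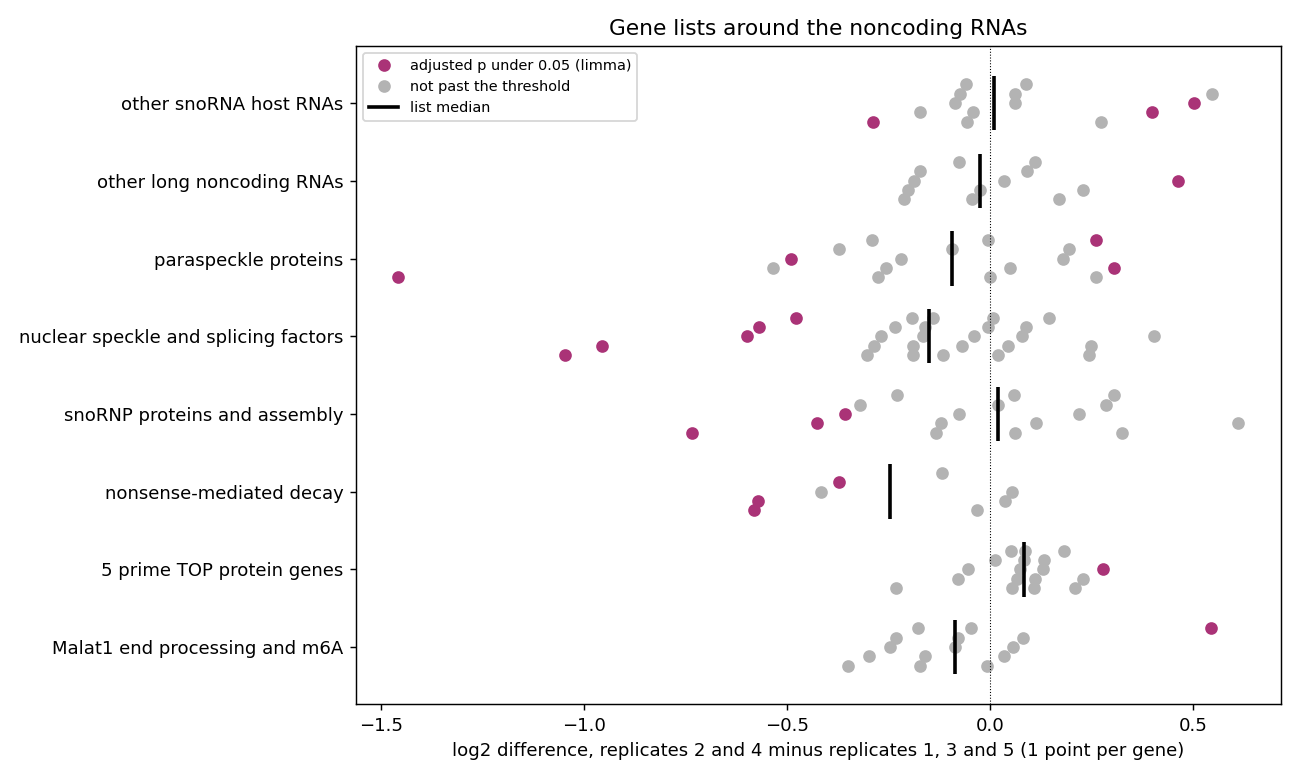
Log2 difference between replicates 2 and 4 and replicates 1, 3 and 5 for each tested gene of the 8 lists (1 point per gene, brightest probe set), with purple points past an adjusted p of 0.05 and a bar at the list median. Sfpq (-1.46), Snrnp70 (-1.05) and Acin1 (-0.96) are the 3 leftmost points.

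The protein-coding genes next to the noncoding RNAs are given by their nearest tested gene on either side. Znrd2 and Frmd8, on either side of the Malat1 and Neat1 pair, differed by 0.06 ± 0.10 and 0.07 ± 0.10 between the replicate sets (adjusted p = 0.725 and 0.686 by limma). Around Gas5, Rc3h1 (Roquin, an RNA-binding repressor) was lower by a log2 difference of -0.33 ± 0.08 (adjusted p = 0.0187 by limma) and Klhl20 gave -0.23 ± 0.11. The Gas5 probe sets went both ways there, at 0.23 (1419291_x_at), 0.26 (1449410_a_at), -0.10 (1436222_at) and -0.28 (1424843_a_at). Beside Snhg1, Slc3a2, an amino acid transporter subunit, gave -0.44 ± 0.12 (adjusted p = 0.0287) and Wdr74 -0.14 ± 0.10, and beside Snhg3, Phactr4 gave -0.30 ± 0.09 (adjusted p = 0.0425) and Rcc1 -0.17 ± 0.11. The neighbours of Snhg12, Taf12 and Trnau1ap, gave -0.13 ± 0.08 and -0.14 ± 0.09. For CLP against sham none of these 10 genes passed.

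Some other genes had a pattern over the 10 arrays close to a member's, given as Pearson correlations of log2 levels. They are a description, being the 5 highest among 13073 genes over only 10 arrays that also hold the split by number. Malat1 1418189_s_at and Neat1 1442881_at each had 1 array far from the rest of its group, which weighs on such a correlation. For Malat1 1418189_s_at the nearest were Dmtf1 (0.968), Tet1 (0.968), Eif4e3 (0.965), Tcf20 (0.96) and Zbtb4 (0.951). With group means removed Ipcef1 (0.976), Smc6 (0.974) and Slc20a1 (0.974) came first, before Tet1 and Dmtf1. Neat1 1442881_at was nearest to Nacc2 (0.961), Elmo1 (0.957), Fancg (0.956), Dydc2 (0.956) and Ctr9 (0.951), and with group means removed to Elmo1, Nacc2, Cd209b, Atxn1 and AY074887. Gas5 1419291_x_at was nearest to Irf5 (0.932), Slfn5os (0.922), Exosc9 (0.918), Nagk (0.917) and Cmtm2b (0.915), and with group means removed to Dnajb9, Irf5, Aven, Lxn and Calcrl. The Neat1 probe sets had a correlation of -0.23 with each other.

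Markers of other cells were summed per array over the tested members of each list, since in RNA of a whole sample fewer cells of a type and less RNA per cell cannot be told apart. Markers of monocytes and macrophages (4 of 5 tested) summed to 3678 to 4064 on the arrays numbered 2 and 4 and to 2535 to 3562 on the others. Neutrophil markers (6 of 6) summed to 1618 to 4754 against 2431 to 14641, and B cell markers (5 of 6) to 1747 to 1942 against 1404 to 4156. CD4 T cell markers summed to 11259 to 14688 against 13239 to 19366, with Cd3g (-0.85 ± 0.11) and Thy1 (-0.85 ± 0.12) past the threshold, and CD8 markers (2 of 2) to 516 to 580 against 394 to 545. Past it as well were Cd8b1 (0.59), the B cell gene Cd79a (-0.84), the macrophage receptor Csf1r (0.43) and Klrd1 (0.43), the 1 tested of 4 NK cell genes listed. The 6 neutrophil markers were all lower (median -0.91) with none past it. Within lists directions were mixed, with 4 lower and 2 higher for CD4 T cells, 4 and 1 for B cells, and 2 and 2 for monocytes and macrophages. Cd79a passed in 8 of 21 other settings, Csf1r and Klrd1 each in 11 of 21, and Cd8b1 in 19 of 20. Between CLP and sham the sums overlapped in these lists and in those of dendritic cells, NK cells, erythroid cells and platelets, and no marker passed. The 2 tested erythroid markers were higher in CLP (median log2 difference 1.18), as were all 4 platelet markers (0.18), beside the lower CD4 T cell markers. The part of these cells, of the 18S signal and of the control ratios in the differences of the noncoding RNAs was not tested.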

How the data were processed

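Each deposited value is an intensity on a linear scale for a probe set on 1 array, from Affymetrix arrays hybridised with biotin-labelled cRNA after a pair of amplification rounds, per the labels' protocols. How the authors corrected background and scaled is not given in the sources used here. Amplification from the 3 prime end shortens the copies, so probe sets far from that end can read low. Genes were named from a platform annotation: 34958 probe sets had 1 symbol, 932 several and 9160 were unnamed. List genes were matched through Entrez identifiers to RefSeq genes of GRCm38.p6, used for names and gene order.

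Arrays were scaled to a common median, values under the 25th percentile (70.4) were set to it, and log2 was taken. Probe sets with a mean under the 40th percentile and 64 controls were left out, which left 27022 probe sets and 13073 genes by brightest probe set. Contrasts were fitted with limma 3.58.1 in R 4.3.3 and adjusted by Benjamini-Hochberg over all of them (threshold 0.05); SE is limma's moderated error. The source labels name an individual mouse for each array, so the spread was taken as between mice, though the sham titles all carry the same biological replicate number. The fit was tested on simulated arrays. Members, lists and the split by replicate number were chosen with earlier results of these data known. Genes named are all members, their nearest tested neighbours on either side, up to 4 genes per list past the threshold and the 5 most alike genes; Ddx39b, Xist and Norad were named after their values were seen. Alternatives were scaling, floor, filter, variance trend, averaged probe sets, blocks, subsets and leaving out each array.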

Additional observations from a re-analysis of the deposited data

Results flagged for a closer look

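In the 40 groups of 5 arrays checked, 1 array stood far from the other 4 in 2, and chance gives such a gap in about 1 of 20 groups. For Malat1 1418189_s_at it was CLP replicate 2, at a log2 level of 10.94 where the next CLP array lay at 12.80 and the highest at 13.06. For Neat1 1442881_at it was sham replicate 5, at 8.10 where the next sham array lay at 9.01 and the highest at 9.30. The gap was 0.878 and 0.756 of the group's range, against a limit of 0.71.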

How the results depend on the processing

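For CLP against sham the count of probe sets past the threshold, 190, became 3 without a filter on low probe sets, 718 with the replicate set as a block, 0 in replicates 1, 3 and 5 alone (3611 at an unadjusted p under 0.05 by limma), 2 in replicates 2 and 4 alone, and 4 (without sham replicate 3) to 506 (without CLP replicate 1) when 1 array was left out. The members past it, 0, became 1 with that block and 0 to 1 when 1 array was left out. For the split by replicate number the count of 4081 became 56 with CLP arrays only, 3122 with sham arrays only and 1900 to 5152 when 1 array was left out, and the 9 members became 5 without the filter, 1 with CLP arrays only, 7 with sham arrays only and 5 to 10 when 1 array was left out. The interaction count of 0 became 584 without CLP replicate 2, over a range of 0 to 584, with 0 to 1 members; that setting rests on 1 CLP array of replicates 2 and 4, assumed to vary like the other groups. With all Gas5 probe sets averaged its differences were -0.10 (CLP against sham) and 0.025 (split by number), and Hnrnpr turned to -0.38 in the same setting. Of 28 list genes past the threshold, 27 kept their direction in every setting run, and Hnrnpr did not; 1 of the 28, Sfpq, passed in every setting run. With the replicate number as a block 248 probe sets and 0 members passed for CLP against sham. Same-numbered arrays correlated at 0.063 to 0.582 in their deviations from the group means, and 1 of 5 CLP arrays correlated best with its own number, so the numbers were not taken as pairs. Signals near the floor, as of Gas5 1424843_a_at, limit the size of a fold.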

Other observations

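A probe set annotated with both Snord47 and Gas5 (1455904_at) was outside the choice of members. It read 664, 586, 554, 795 and 499 in CLP replicates 1 to 5 and 862, 984, 728, 899 and 794 in sham replicates 1 to 5. Its CLP against sham log2 difference was -0.47 ± 0.13 (SE). Gas5 1424843_a_at and 1436222_at had the same sign, and Gas5 1419291_x_at (0.06) and 1449410_a_at (0.21) the opposite. Between the replicate sets it differed by 0.25 ± 0.11, with the sign of 1419291_x_at and 1449410_a_at and against that of 1424843_a_at and 1436222_at. A probe set annotated with Snora24 and Snhg8 (1447896_s_at) gave 0.05 ± 0.08 and 0.10 ± 0.08.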
